A study of Homo sapiens with 9 samples.

Results

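The MDM2 feedback loop on p53 was described here through 8 genes that a list fixed by name: MDM2, MDM4, PPM1D, CCNG1, RPS27L, USP7, COP1 and RCHY1. All 8 were found among the 78986 genes of the deposited table, and all 8 had enough reads to be tested in every comparison. The data are RNA-seq libraries, 9 in all, from HEK293T cells made to express p53 stably as WT, as G245S or as R273H, with 3 biological replicates per form. HEK293T is a human embryonic kidney line that carries the SV40 large T antigen, a viral protein that binds and inactivates the cell's own p53, and no deletion of the endogenous p53 gene is described for any of the 3 groups. The labels give the line's name without the T, whereas the culture is described as HEK293T. Each p53 form was delivered with a lentivirus, and transduced cells were selected with puromycin and kept in 1.5 µg/mL of it. The groups thus shared the host cell, the vector type and the drug and differed by the p53 form. Each form was also a separately transduced line, so that the form and the line cannot be told apart. The methods describe selected populations and name no clones. Each library analysed here came from a line with added p53, so that levels were compared only between such lines.

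p53 is a transcription factor that is kept at a low level by its own target. It binds response elements in the MDM2 gene and raises MDM2 transcription, and the MDM2 protein, an E3 ubiquitin ligase, then covers the activation domain of p53 and marks it for degradation. MDM4 is a relative of MDM2 that lacks strong ligase activity of its own, pairs with MDM2 and blocks the activation domain. PPM1D, a phosphatase also called WIP1, cyclin G1 (CCNG1) and the ribosomal protein paralog RPS27L are further p53 targets that act back on p53 or MDM2. USP7 is a deubiquitinase of p53 and MDM2, and COP1 and RCHY1 (PIRH2) are a pair of other ubiquitin ligases of p53. They set p53 stability beside the core loop. G245S is a substitution that alters the fold of the DNA-binding domain of p53, and R273H removes a contact with DNA.

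Depth and library quality bear on the groups before any gene is compared. The 8 libraries used in the tests held between 7325514 and 9667306 counts on genes, whereas WT replicate 3 held 1486315 and was left out of the tests by a rule on depth, so that WT means rest on 2 libraries. Its values are given beside the others. The authors' methods also leave out a WT replicate, for low reads and poor quality, without giving its number. All 8 markers of HEK293T cells (KRT8, KRT18, VIM, CDH2, NEFL, NEFM, PAX2 and LHX1) were above 3 counts in every library, with a summed level of 883 to 1070 CPM in WT, 818 to 946 CPM in G245S and 866 to 907 CPM in R273H. The summed level of 3 epithelial markers (EPCAM, CDH1 and KRT19) was 51.3 CPM in WT replicate 3 and at most 5.47 CPM in the other libraries. The part of this difference in any result with that library was not tested. Levels are in CPM, the counts of a gene relative to the size of its library after TMM scaling. They are not adjusted for gene length and were compared between libraries and never between genes. In bulk RNA, fewer cells with a transcript and less of it per cell cannot be told apart.

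MDM2, the ligase of the loop, and RPS27L, a p53 target that binds MDM2, were lower in both mutant lines than in WT, by log2 fold changes of −0.82 and −0.62 in G245S and −0.90 and −0.71 in R273H. They were the 2 of the 8 genes that passed an adjusted p of 0.05 in each line, and none passed as higher. MDM4, PPM1D, CCNG1, USP7, COP1 and RCHY1 did not pass. Across all genes, 20 of 15893 (0.126%) passed in G245S, of which 17 (0.107%) were lower, and 22 of 16022 (0.137%) passed in R273H, of which 18 (0.112%) were lower. The median log2 fold change of the 8 genes was −0.18 in G245S and −0.15 in R273H, beside medians of 0.0034 and 0.0023 over all genes tested. Both comparisons use the same WT libraries, so that the like values in the 2 lines are not independent of each other. In 4 of the 8 genes (MDM2, PPM1D, CCNG1 and RPS27L), all 6 mutant libraries were below WT replicates 1 and 2, which held for 4.61% of 16156 genes. With WT replicate 3 added it held for 2 of the 8, MDM2 and RPS27L, and for 2.32% of genes.

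The DNA through which p53 reaches MDM2 is shown here, since the loop runs through it. The p53 response element consists of 2 half-sites of 10 bases, each with 3 purines, a C, 2 bases that are A or T, a G and 3 pyrimidines, and it reads the same on both strands. It was searched for as 20 unbroken bases, with no spacer between the half-sites, and mismatches were counted. The second promoter of MDM2 lies in intron 1 of the canonical transcript, 840 bases past its first start. RefSeq (GRCh38.p14) places a transcription start at chromosome 12, position 68809017, plus strand. The stretch before it is chr12:68808913-68809010, with 2 elements in capitals separated by 18 bases.

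MDM2 intron 1: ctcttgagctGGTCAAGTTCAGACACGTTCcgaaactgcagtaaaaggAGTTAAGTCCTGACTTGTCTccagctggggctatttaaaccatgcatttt

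The first of these elements had 2 mismatches and the second had 3. Among 35116 RefSeq promoter windows, each the 250 bases before a start, 0.561% held an element with 2 mismatches or fewer and 4.36% one with 3 or fewer. Of the windows of the 8 genes, 2 of the 4 of MDM2, which overlap and hold the same site, met the first limit, and the window of RPS27L met the second. Neither limit was met in the windows of MDM4, PPM1D, CCNG1, USP7, COP1 and RCHY1.

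A wider window of 2000 bases on either side of the canonical start (GENCODE v44, GRCh38) was then searched for the 8 genes. Sites of CCNG1, RPS27L, PPM1D and MDM4 are shown. MDM2 had further sites there with 3 mismatches, in intron 1 at chr12:68809085-68809104 and in intron 2 at chr12:68809621-68809640, not shown. Each sequence is printed in the direction of transcription, and here capitals mark the bases that match the element. CCNG1 had 1 mismatch, in intron 1 at chr5:163437926-163437945. MDM4 had 2 mismatches, in intron 1 at chr1:204516933-204516952. RPS27L had 3 sites with 3 mismatches, of which the intron 1 site at chr15:63157235-63157254 and the site 69 bases before the start at chr15:63157527-63157546 are shown. PPM1D also had 3 sites with 3 mismatches. The one shown, the nearer of those before the start, lies 473 bases before it at chr17:60599720-60599739, and the site not shown in exon 1, before the coding sequence at chr17:60600251-60600270, had no mismatch in its first half-site and 3 in its second.

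CCNG1 intron 1: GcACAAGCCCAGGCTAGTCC
MDM4 intron 1: GtGCTTGTTTGAAaATGCTT
RPS27L intron 1: GGGCATGTagtGACTTGCCC
RPS27L upstream: GGcCTAGagCAGACAAGCCC
PPM1D upstream: GcACTTGTTCcGGCcAGCTC

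Matches of this kind are common at that distance. Of 20046 protein-coding genes, 0.698% had a match with 1 mismatch or none, 9.25% one with 2 or fewer and 57.2% one with 3 or fewer. The best matches of USP7, COP1 and RCHY1 had 3 mismatches. A match describes the letters only, and binding of p53 was not measured in these libraries.

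**Figure D1:**
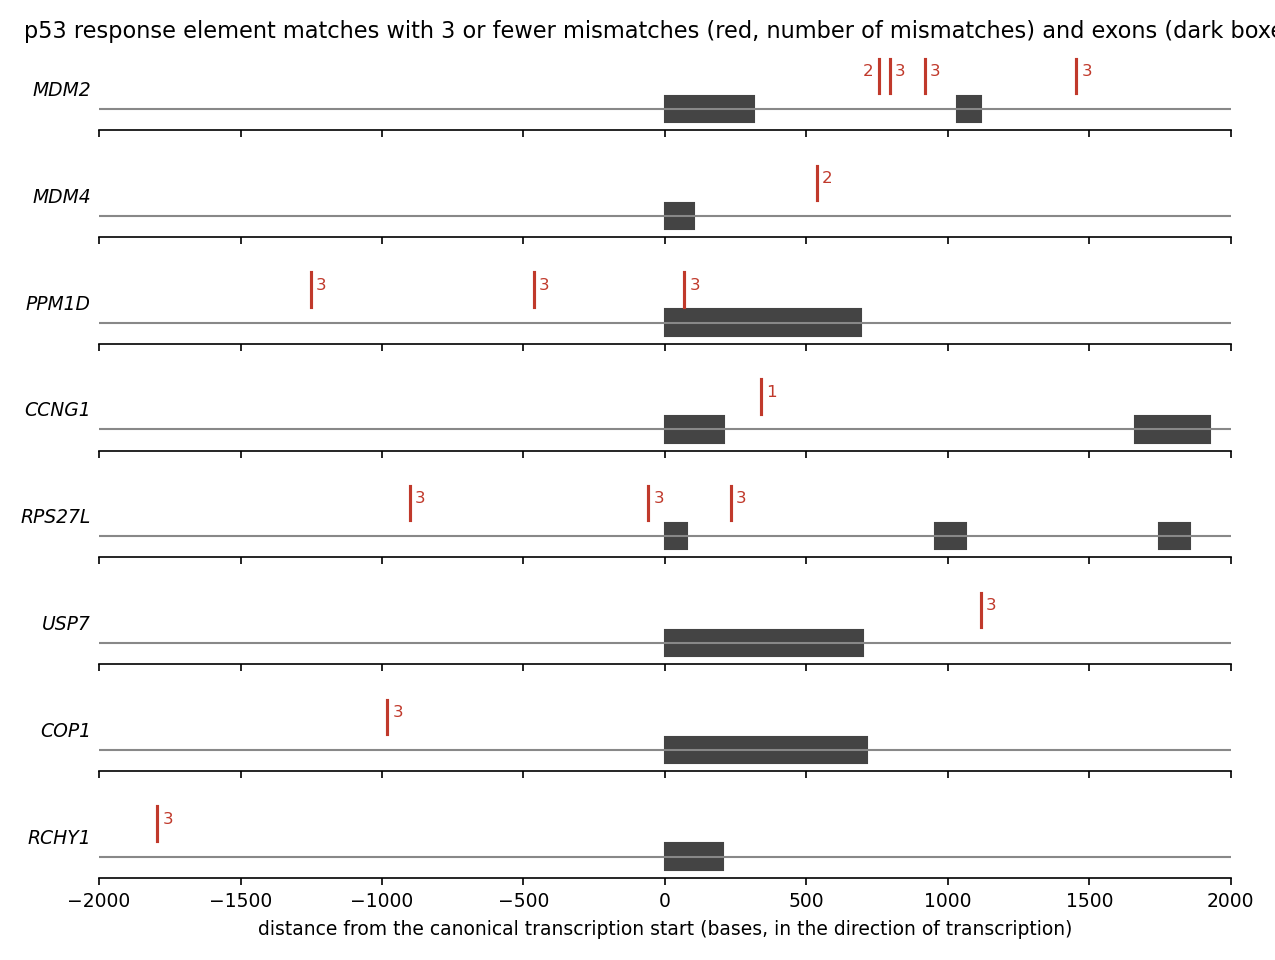
Position of p53 response element matches around the canonical transcription start of the 8 genes. The horizontal axis is the distance from the start in bases, dark boxes are exons, and each red line is a match with 3 mismatches or fewer, with its number of mismatches beside it. MDM2 has a pair of matches close together in intron 1 and further matches with 3 mismatches in intron 1 and intron 2. CCNG1 has the match with the fewest mismatches, 1.

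MDM2, the ligase at the centre of the loop (ENSG00000135679, chromosome 12, 68808177 to 68845544, plus strand), was lower in both mutant lines than in WT. Its level was 79.3, 84.7 and 66.1 CPM in WT replicates 1, 2 and 3, against 47.1, 44.1 and 47.3 CPM in G245S and 41.9, 46.2 and 43.3 CPM in R273H. Every mutant library was below every WT library, the shallow one included, and the 2 mutant lines overlapped. The means were 82.0 ± 3.80 CPM (SD, n = 2) in WT, 46.1 ± 1.80 (SD, n = 3) in G245S and 43.8 ± 2.18 (SD, n = 3) in R273H. On the log2 scale, G245S differed from WT by −0.82 (95% confidence interval −1.01 to −0.63) and R273H by −0.90 (−1.09 to −0.72), that is, to 0.566 and 0.535 of the WT level. The adjusted p-values from edgeR's quasi-likelihood test were 0.000848 and 0.000228. By unadjusted p, MDM2 ranked 4 of 15893 genes in G245S and 3 of 16022 in R273H. Of 16 alternatives, 1 missed the threshold in each line, that with WT replicates 1 and 3 in place of 1 and 2, with log2 fold changes of −0.69 (edgeR adjusted p = 0.136) and −0.77 (edgeR adjusted p = 0.0642). WT replicate 3 held 94 MDM2 counts, and the exact Poisson interval of its level was 53.4 to 80.9 CPM, which covers counting error only.

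**Figure D2:**
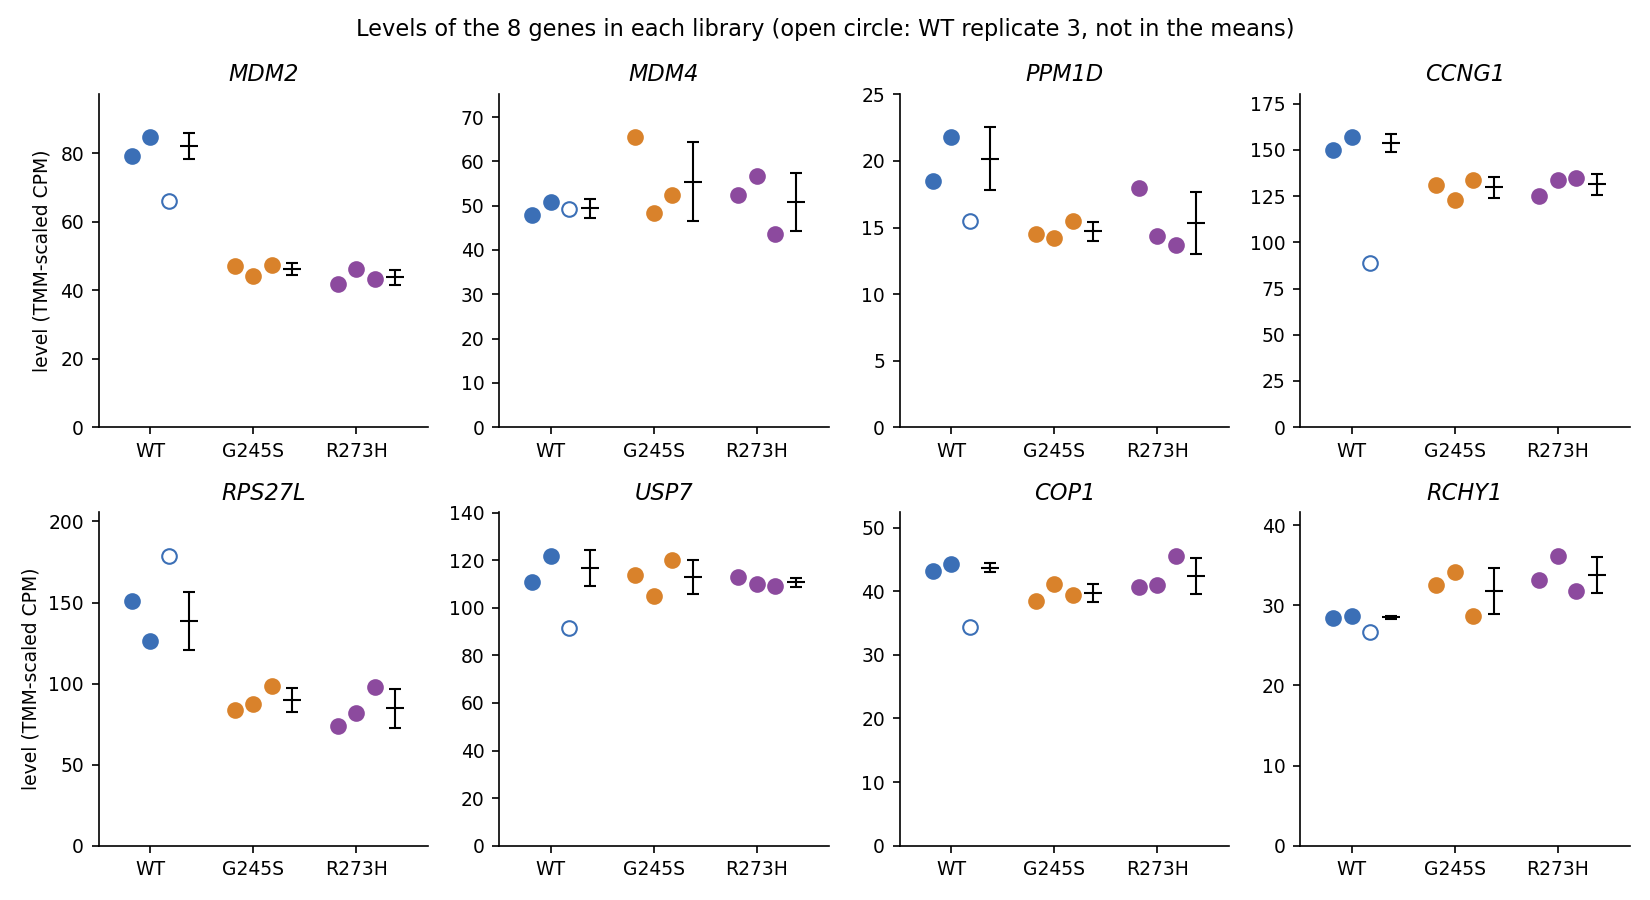
Level of each of the 8 genes in every library, in TMM-scaled CPM on a linear axis that starts at 0. Points are libraries, the open circle is WT replicate 3, and the black bars are the mean and SD of the libraries used in the tests (n = 2 in WT, n = 3 in each mutant line). MDM2 and RPS27L are the genes whose 6 mutant libraries lie below all 3 WT libraries.

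MDM4, the partner that pairs with MDM2 (ENSG00000198625, chromosome 1, 204516379 to 204558120, plus strand), did not pass the test. It was at 47.9, 50.9 and 49.2 CPM in WT, 65.5, 48.3 and 52.4 CPM in G245S and 52.4, 56.6 and 43.7 CPM in R273H. The 3 groups overlapped, and G245S replicate 1 was the highest library. The log2 fold changes were 0.18 (−0.08 to 0.44, edgeR adjusted p = 0.828) and 0.04 (−0.19 to 0.28, edgeR adjusted p = 0.997).

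Since the 2 proteins act as a pair, the ratio of MDM2 to MDM4 counts was taken within each library, where scaling between libraries cancels. The genes differ in length, so that only its change between libraries has a meaning. The ratio was 1.66, 1.66 and 1.33 in the WT libraries, 0.718, 0.913 and 0.901 in G245S and 0.801, 0.817 and 0.989 in R273H. No mutant library reached the lowest WT library. The mean log2 ratio was 0.96 lower in the 6 mutant libraries than in WT replicates 1 and 2, a ratio at 0.513 of the WT value (two-sided exact permutation p = 0.0357, the smallest that 6 against 2 libraries allow). With all 3 WT libraries the ratio was at 0.552 of the WT value (two-sided exact permutation p = 0.0119, again the smallest possible). MDM2 alone already separated the mutant from the WT libraries in these same counts, so that these tests add no independent support. They also pool the 2 mutant lines, which differ in their p53 form.

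**Figure D3:**
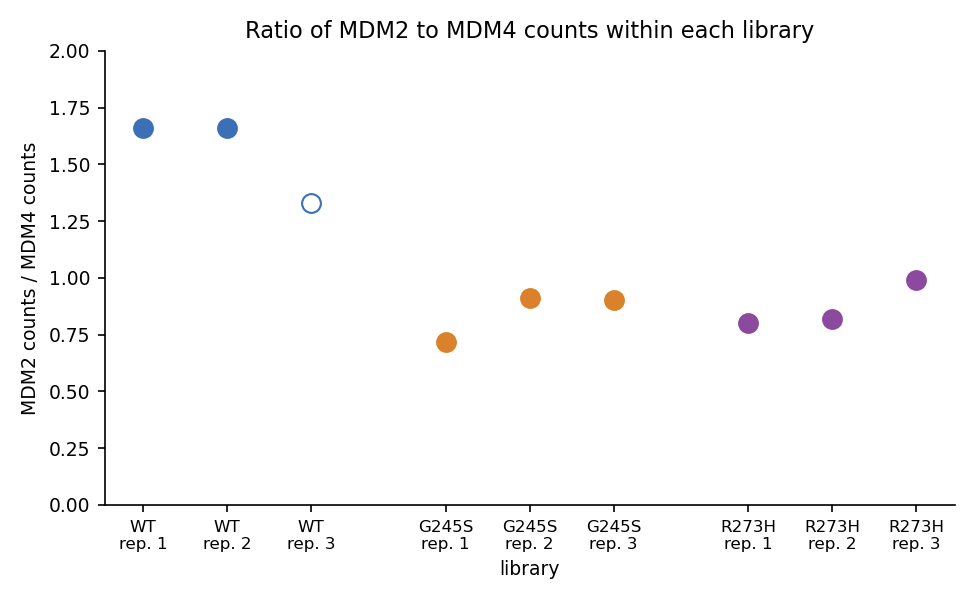
Ratio of MDM2 to MDM4 counts in each of the 9 libraries, on a linear axis that starts at 0. The open circle is WT replicate 3. The WT libraries lie between 1.33 and 1.66 and the 6 mutant libraries between 0.718 and 0.989.

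RPS27L (ENSG00000185088, chromosome 15, 63125872 to 63158021, minus strand), was the other gene that passed. It was at 151, 126 and 179 CPM in WT, 84.0, 87.6 and 98.2 CPM in G245S and 74.0, 82.1 and 98.0 CPM in R273H. Again no mutant library reached the lowest WT library. The log2 fold changes were −0.62 (−0.84 to −0.40, edgeR adjusted p = 0.0296) in G245S and −0.71 (−0.95 to −0.46, edgeR adjusted p = 0.0159) in R273H. The WT libraries were themselves spread, with WT replicate 3 above all others at 179 CPM (exact Poisson interval 158 to 202), and the ribosomal protein genes RPS14 and RPL11 were likewise highest in that library, at 7141 and 4818 CPM, whereas RPS27 was lowest there, at 1948 CPM. Without WT replicate 1 the log2 fold changes were −0.48 (edgeR adjusted p = 0.279) and −0.57 (edgeR adjusted p = 0.175). With all 3 WT libraries they were −0.73 (edgeR adjusted p = 0.062) and −0.815 (edgeR adjusted p = 0.0436). Of 16 alternatives, RPS27L passed in 10 in G245S and in 11 in R273H, whereas MDM2 passed in 15 in each.

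RPS27, the paralog of RPS27L and a constituent of the small ribosomal subunit, did not pass the test. It was at 2412, 2086 and 1948 CPM in WT, 2223, 2456 and 2633 CPM in G245S and 2279, 2279 and 2427 CPM in R273H, and the groups overlapped. Its log2 fold changes were 0.12 (edgeR adjusted p = 0.904) and 0.05 (edgeR adjusted p = 0.997). Reads that fit both paralogs were shared as fractions by the authors' counting, and a small part of either value may therefore belong to the other gene.

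PPM1D, the phosphatase that reverses damage-induced phosphorylation of p53 and of its activating kinases (ENSG00000170836, chromosome 17, 60600193 to 60666280, plus strand), was at 18.5, 21.8 and 15.5 CPM in WT. It was at 14.5, 14.2 and 15.5 CPM in G245S and at 18, 14.4 and 13.7 CPM in R273H. All 6 mutant libraries were below WT replicates 1 and 2, while WT replicate 3 lay within the mutant range. The log2 fold changes of −0.44 (−0.72 to −0.17) and −0.39 (−0.69 to −0.08) had unadjusted p-values of 0.00359 and 0.0159 but edgeR adjusted p = 0.479 and 0.703, and PPM1D was not called in either line.

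CCNG1 encodes cyclin G1, which brings the phosphatase PP2A to MDM2 (ENSG00000113328, chromosome 5, 163437569 to 163448199, plus strand). It was at 150, 157 and 88.6 CPM in WT, 131, 123 and 134 CPM in G245S and 125, 134 and 135 CPM in R273H. The mutant libraries lay between WT replicates 1 and 2, above, and WT replicate 3, below. The log2 fold changes were −0.24 (edgeR adjusted p = 0.664) and −0.22 (edgeR adjusted p = 0.739). Their sign depended on the shallow library: with WT replicates 1 and 3 they were 0.06 and 0.07, and with WT replicates 2 and 3 they were 0.01 and 0.02. The value of WT replicate 3 rested on 126 counts (exact Poisson interval 73.8 to 105 CPM), below the 123 to 157 CPM of all other libraries. CCNG2, the paralog of CCNG1, had log2 fold changes of −0.12 and −0.14 (edgeR adjusted p = 0.92 and 0.982).

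USP7, the deubiquitinase that removes ubiquitin from both p53 and MDM2 (ENSG00000187555, chromosome 16, 8892097 to 8975328, minus strand), had log2 fold changes near 0. It was at 111, 122 and 91.4 CPM in WT, 114, 105 and 120 CPM in G245S and 113, 110 and 109 CPM in R273H. The groups overlapped. The intervals of its log2 fold changes, −0.24 to 0.16 in G245S and −0.26 to 0.11 in R273H, do not reach the change seen for MDM2.

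COP1, a ubiquitin ligase of p53 (ENSG00000143207, chromosome 1, 175944831 to 176207286, minus strand), was at 43.2, 44.2 and 34.4 CPM in WT, 38.5, 41.2 and 39.4 CPM in G245S and 40.6, 41.0 and 45.6 CPM in R273H. Its groups overlapped, with log2 fold changes of −0.13 (−0.33 to 0.06, edgeR adjusted p = 0.831) and −0.04 (−0.24 to 0.16, edgeR adjusted p = 0.997). RCHY1, the third ubiquitin ligase (ENSG00000163743, chromosome 4, 75479033 to 75514764, minus strand), was at 28.4, 28.7 and 26.7 CPM in WT. It was at 32.5, 34.1 and 28.6 CPM in G245S and at 33.2, 36.2 and 31.8 CPM in R273H. All R273H libraries were above all WT libraries, but the log2 fold change of 0.24 (0.02 to 0.46) had an unadjusted p of 0.0324 and edgeR adjusted p = 0.775. In G245S, replicate 3 lay within the WT range and the log2 fold change was 0.16 (−0.07 to 0.39, edgeR adjusted p = 0.826). WT replicate 3 was the lowest of the 9 libraries for CCNG1, USP7, COP1 and RCHY1.

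**Figure D4:**
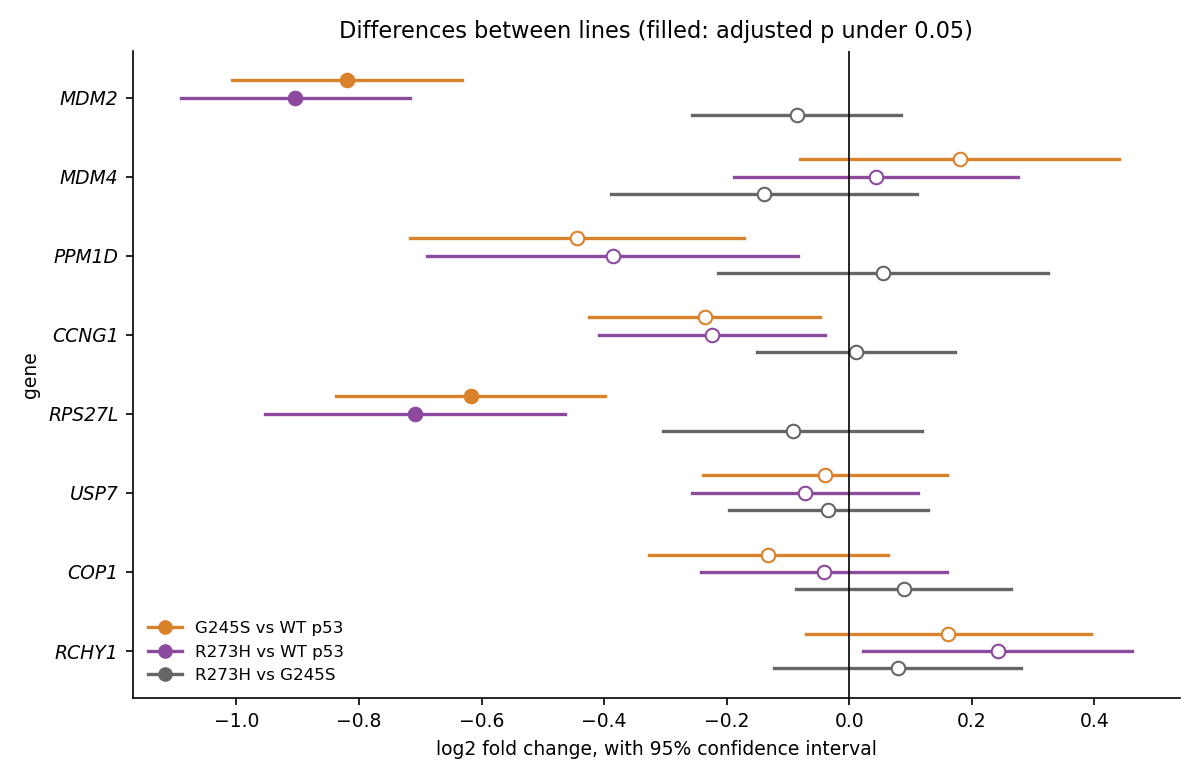
Log2 fold change of the 8 genes in 3 comparisons, with 95% confidence intervals from edgeR's quasi-likelihood fit. Filled points have an adjusted p under 0.05 (MDM2 and RPS27L against WT in both mutant lines). The grey intervals, R273H against G245S, all include 0.

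The contact mutant and the structural mutant were compared directly. None of the 8 genes passed, and 0 of 15614 genes (0%) passed in edgeR, with 741 at an unadjusted p under 0.05 and 1 gene, not one of the 8, called by DESeq2. That count depended on the fit, since edgeR with no filter on low counts called 125 genes, but 0 of the 8 passed in any of the 14 alternatives. MDM2 differed by a log2 fold change of −0.09 (−0.26 to 0.09) and RPS27L by −0.09 (−0.30 to 0.12). Between the 8 genes the log2 fold change ran from −0.14 for MDM4 to 0.09 for COP1, each with edgeR adjusted p of at least 0.994. The MDM2 interval between the 2 mutant lines includes 0, and a difference within it remains possible. The smallest difference that 3 libraries each could detect was not tested.

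The genes around the loop were counted in lists by role. One list held ubiquitin ligases, conjugating enzymes and deubiquitinases of p53 or MDM2 other than the 8, with partners such as YY1, DAXX and TRIB1. Of its 27 tested genes, 0 passed in either mutant line, with median log2 fold changes of 0.01 (G245S) and −0.01 (R273H). The most abundant of them, the MDM2 cofactor TRIM28, was at 586 ± 22.4 CPM (SD, n = 2) in WT, 598 ± 13.7 (SD, n = 3) in G245S and 569 ± 24.6 (SD, n = 3) in R273H. UBE2D3, a conjugating enzyme that serves MDM2, was at 319.9 ± 16.6, 320.1 ± 9.85 and 331 ± 19.7 CPM in the same groups. Among 16 damage kinases and partners that PPM1D opposes, 0 passed and the medians were 0.00 and −0.06, with log2 fold changes of −0.06 and −0.13 for PRKDC and of 0.00 and −0.13 for H2AX.

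Some ribosomal and nucleolar proteins can bind MDM2 and hold it from p53. They were listed with related factors such as BOP1, PES1, HEATR3 and NOP53, and not every listed gene has that role. Of the 17 genes 0 passed, with medians of −0.05 and −0.08. RPS14 was at log2 fold changes of −0.03 and −0.17 and RPL11 at −0.12 and −0.12. A list of 12 genes held PP2A subunits, CCNG2 and the kinases GAK and CDK5, of which 0 passed and the medians were 0.04 and 0.06. The scaffold subunit PPP2R1A had log2 fold changes of 0.05 and 0.01 and the catalytic subunit PPP2CA of −0.04 and 0.04. Of 18 tested acetyltransferases, deacetylases and cofactors of p53, 0 passed, with medians of 0.06 and 0.03, HDAC2 at −0.07 and −0.05 and PRMT5 at 0.02 and 0.04. These lists thus held no gene past the edgeR threshold in G245S or R273H against WT, and no value beyond −0.30 or 0.37. Of all genes tested, 0.126% passed in G245S and 0.137% in R273H, so that 0 in lists of this size is near that share.

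Other p53 target genes stood beside MDM2. Of 34 tested, 10 passed in G245S and 9 in R273H, all lower than in WT. By sign, 33 and 32 of the 34 were lower. Their median log2 fold changes were −0.50 and −0.48, beside medians of 0.0034 and 0.0023 over all genes tested. Of all genes, 0.107% passed as lower in G245S and 0.112% in R273H. The list was written with earlier results of these data known, so that its counts are not independent support for MDM2. The genes of the list that passed in both lines were DDB2, FDXR, PHLDA3, TP53I3, BBC3, AEN, DRAM1 and CYFIP2. TP53INP1 and EDA2R passed in G245S only and FAS in R273H only. Between the mutant lines themselves, neither TP53INP1 nor FAS passed, and EDA2R was too low to be tested. The change of MDM2 was near that of AEN, an exonuclease induced by p53, at −0.81 and −0.68, and of CYFIP2 at −0.85 and −0.87. BBC3 (PUMA), a promoter of apoptosis, was at −0.68 and −0.62, beside −0.62 and −0.71 for RPS27L. EDA2R, a receptor of the TNF family, was at 2.18, 3.47 and 2.11 CPM in WT, at 0, 0 and 0.123 CPM in G245S and at 0.691, 0.683 and 0.475 CPM in R273H. Its G245S values were below the floor of 3 counts (0.31 to 0.374 CPM in those libraries), so that its call there rests on few reads. With all 3 WT libraries, 7 of the 34 passed in each line.

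**Figure D5:**
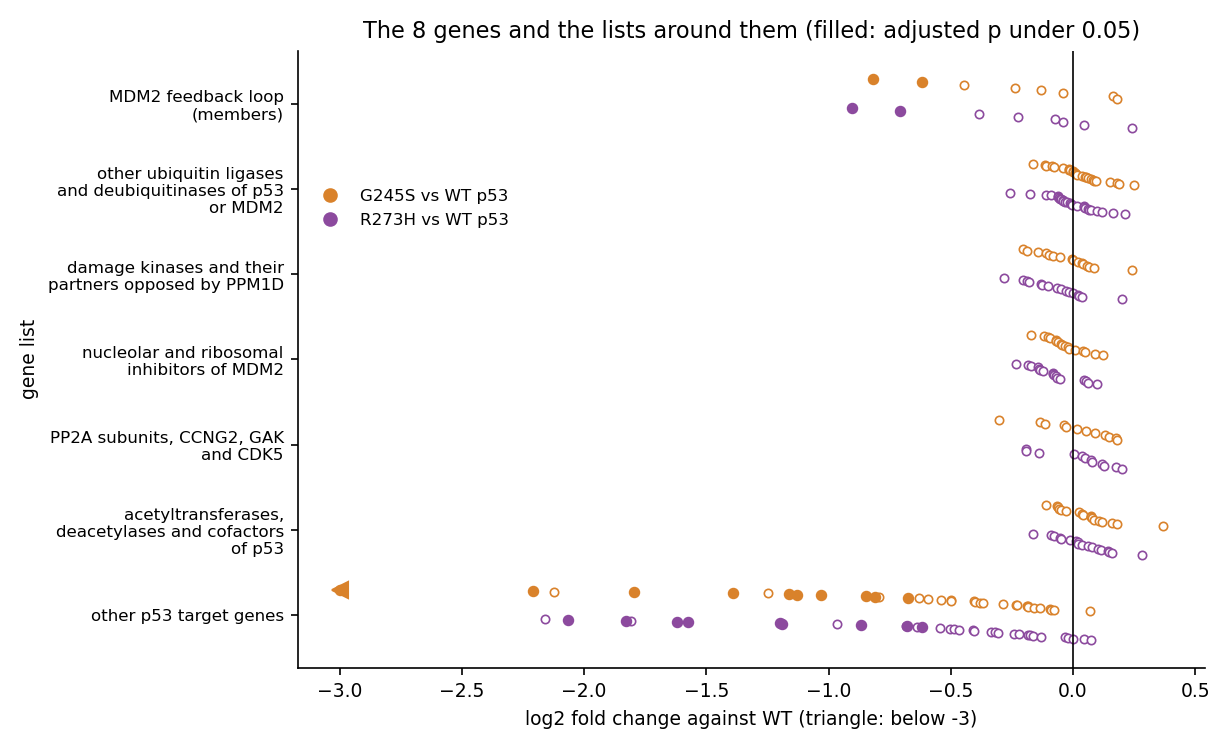
Log2 fold change against WT for the 8 genes and for 6 lists of genes around them, in G245S and R273H. Each point is a gene, filled where its adjusted p was under 0.05. The triangle is EDA2R in G245S, which lies below the axis and was under the floor of 3 counts in every G245S library. Filled points are found among the 8 genes (2 in each line) and among the other p53 targets (10 and 9), with 0 in the 5 other lists.

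The pattern of MDM2 over the 8 libraries was matched against 11030 genes with a mean of at least 5 CPM, by the root mean square difference of log2 levels after each gene was centred on its own mean. The 5 closest genes were CYFIP2 at 0.0536, PYGL at 0.11, AEN at 0.128, BBC3 at 0.137 and CKMT1B at 0.149, against a median of 0.394 over all genes. CYFIP2, a component of the WAVE complex that drives actin branching, was at 42.9, 42.4 and 42.2 CPM in WT and between 21.8 and 25.2 CPM in the mutant libraries. PYGL, the liver form of glycogen phosphorylase, was at 97.0, 88.4 and 75.2 CPM in WT and between 53.7 and 61.8 CPM in the mutant libraries. CKMT1B, a mitochondrial creatine kinase with a near-identical copy in the genome, was at 19.0, 15.7 and 11.2 CPM in WT. In the mutant libraries CKMT1B was between 8.2 and 11.5 CPM, so that WT replicate 3 lay within the mutant range. Within the loop, RPS27L was the closest, ranked 7 at 0.17, followed by PPM1D (rank 68) and CCNG1 (rank 168), while MDM4 ranked 8648 and RCHY1 10079. The points of this likeness share libraries and depth, and it describes these 8 libraries only.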

How the data were processed

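RNA-seq was analysed from 9 libraries, 3 for each p53 form. The authors filtered reads with fastp 0.24.0, aligned them with STAR 2.7.11 to GRCh38, collapsed duplicate reads (UMICollapse, by molecular identifier) and counted strand-specifically with featureCounts (Subread 2.1.1) on exons and 3′ UTRs, sharing multi-mapping reads as fractions. The deposited values are thus expected counts without normalization, and the deposited CPM columns, which are counts scaled by the library total, were used only as a check. Of the table's gene identifiers, 61463 were found in GENCODE v44 and 91.8% of these shared a start or an end.

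Counts were rounded and filtered with filterByExpr, scaled with TMM and tested in edgeR 4.0.16 (R 4.3.3) by its quasi-likelihood test. P-values were Benjamini-Hochberg adjusted across every gene tested, and 0.05 was the threshold. WT replicate 3 fell short of the depth limit of 4096044 counts (0.5 of the median total of the remaining 8 libraries) and was not fitted. The floor was 3 counts, and floors and intervals cover counting error only. Replicates are stated to be biological, but not whether they came from separate transductions, so p-values measure the spread between these samples. The MDM2 to MDM4 ratio was tested with an exact permutation test over libraries in SciPy 1.17.1. DESeq2 1.42.0, other scalings, filters, choices of libraries and a replicate term were alternatives. limma 3.58.1, data.table (version 1.17.8), Python 3.11.15, numpy 2.4.6, pandas 2.3.3 and matplotlib 3.10.9 were also used. The pipeline was tested on simulated data.

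Genes were named by a rule: the 8 genes, the paralogs RPS27 and CCNG2, the genes of each list past the threshold against WT or else its 2 most abundant, and the 5 genes closest to MDM2. The 8 genes and the lists were chosen with earlier results of these data known. No source states that equal replicate numbers mark paired libraries. One planned check is left out of the text.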

Additional observations from a re-analysis of the deposited data

How the results depend on the processing

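MDM2 was lower in both mutant lines under all 16 alternatives, between −0.86 and −0.69 in G245S and between −0.95 and −0.77 in R273H, and RPS27L between −0.85 and −0.48 and between −0.94 and −0.57. The count of the 8 genes called in G245S was 1 with all 3 WT libraries or with WT replicates 2 and 3, and 0 with WT replicates 1 and 3. For R273H the count was 0 with WT replicates 1 and 3 and 1 with WT replicates 2 and 3. Leaving out 1 library at a time gave 1 to 2 of the 8 in each line and 0 between the lines. With 1 WT library left, it was assumed to vary like the mutant libraries. Of all genes, leaving out 1 library gave 10 to 30 calls in G245S, 16 to 29 in R273H and 0 to 3 between the mutants, no filter gave 144, 93 and 125, and the replicate block gave 76, 47 and 59. Calls in G245S fell to 10 with all 3 WT libraries and to 3 with WT replicates 1 and 3. Those in R273H fell to 4 with WT replicates 1 and 3 and to 13 with WT replicates 2 and 3. DESeq2 called 1 gene between the mutants. The cause of these shifts was not tested.

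Whether replicate numbers pair the libraries was not established. The deviations of same-numbered libraries correlated at 0.263, 0.376 and 0.015 between G245S and R273H and between −0.221 and 0.078 against WT, and 4 of 6 mutant libraries correlated best with their own number in the other line, a hint from the data and not from the design. The replicate block left 2 of the 8 genes called in each line. Signs turned only for genes that were not called. With WT replicates 1 and 3, CCNG1 was at 0.0576 and 0.066, USP7 at 0.13 and 0.0949, and COP1 in R273H at 0.0596. With WT replicates 2 and 3, CCNG1 was at 0.00822 and 0.0199, USP7 at 0.0407 and 0.00897, and COP1 in R273H at 0.0352. With all 3 WT libraries, USP7 was at 0.0324 and 0.000672 and COP1 in R273H at 0.00754. With 1 library left out, USP7 in G245S ran from −0.10 to 0.0239 (0.00906 without G245S replicate 2) and MDM4 in R273H from −0.0342 to 0.144. Between the mutants, MDM4 ran from −0.231 to 0.00893, USP7 from −0.0831 to 0.00781, PPM1D from −0.0788 to 0.137 and CCNG1 from −0.0263 to 0.0486, with −0.00689 and −0.00907 without R273H replicates 2 and 3. With no filter, CCNG1 between the mutants was at −0.00431. The mutant minus WT difference in mean MDM2 to MDM4 log2 ratio stayed between −1.0 and −0.91 without 1 library, an alternative chosen after seeing the data. Depth limits PPM1D most, with 105 to 170 counts in the libraries tested.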
